A study of Mus musculus with 18 samples.

Results

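The arrays described here set interscapular brown adipose tissue (BAT) against subcutaneous white adipose tissue (sWAT), described in the study as the inguinal depot, of mice kept at 28°C, a temperature at which a mouse needs little extra heat. They are 6 of 18 expression arrays, the 3 titled as brown and the 3 titled as subcutaneous white adipose at 28°C. All were hybridised with total RNA of female Sv129 mice aged 10 weeks that had spent 10 days at the stated temperature in single cages on standard chow, with no genetic change and no drug. The other 12 arrays held the same 2 depots at 6°C and mesenteric white adipose tissue (mWAT) at both temperatures, 3 arrays a group. They entered the estimate of the spread and were otherwise used where named. Arrays were grouped by title, with which their source names and descriptions go together, because the tissue and temperature listed among the characteristics contradict them, with mesenteric or white tissue listed for the arrays titled as brown. Each array is described as 1 mouse, the methods call the 3 biological replicates, and the labels do not tell which depots came from the same mouse. The p-values therefore measure the spread between mice within a group. It was estimated over all 18 arrays, unless a fit of the 6 arrays alone is named.

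Brown adipocytes burn fatty acids in a dense population of mitochondria, and uncoupling protein 1 (UCP1) lets protons return across the inner membrane without ATP synthesis, so that the energy leaves as heat. White adipocytes store triglyceride in 1 large droplet and release leptin and other hormones, and those of the subcutaneous depot can take on brown traits in the cold. A dissected depot also holds blood vessels, connective tissue, nerves and immune cells, and the inguinal depot of a female mouse surrounds mammary gland and a lymph node.

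The depot labels were in keeping with the defining markers of the tissues. Ucp1 lay between 14 and 14.07 on the log2 scale on the BAT arrays and between 9.52 and 10.55 on the sWAT arrays, and Adipoq, the adiponectin gene of all adipocytes, between 13.65 and 13.85 on all 6. Pairwise correlations over all probe sets were 0.983 to 0.989 among the BAT arrays, 0.982 to 0.984 among the sWAT arrays and 0.917 to 0.946 between the depots. The median intensity was at most 131.7 on the BAT arrays and at least 144 on the sWAT arrays. Of 45037 probe sets, 10301 differed between the depots by limma with Benjamini-Hochberg adjustment at an adjusted p below 0.01, which is 22.9% and is named "called" from here on. Higher levels in BAT were called for 5949 of them and lower levels for 4352, so that 57.8% of calls were higher in BAT. This split became 71.3% when each array was centred on its median, with the median difference over all probe sets going from 0.107 to 0.251. Counted by gene, with the brightest probe set standing for a gene, 14.5% of 18194 genes were higher in BAT and 13.0% were lower, with a median log2 difference of 0.077. The largest differences ran the other way, with at least 4-fold higher levels in BAT for 200 genes and at least 4-fold lower levels for 707. At least 16-fold differences were found for 22 and 133 genes. As these are whole tissues, a smaller share of cells of a type and less RNA per cell cannot be told apart in any of the values below.

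Zic1, Slc27a2, Cpn2, Kng1, Olig1, Ppara and Cideb were among the 10 genes with the largest differences toward BAT. Zic1, a zinc finger factor used as a marker of classical brown fat, lay at 9.67, 9.69 and 9.68 on the BAT arrays and at 2.82, 2.81 and 2.91 on the sWAT arrays. The groups were thus separated by a distance many times the spread within either, with a 114-fold difference (log2 difference 6.83, standard error (SE) 0.17, adjusted p = 1.2e-11). Slc27a2, which activates very long chain fatty acids and aids fatty acid uptake, lay at 11.31, 11.13 and 11.29 in BAT and at 5.54, 4.62 and 5.45 in sWAT. Its difference was 6.04 (SE 0.34, adjusted p = 3.2e-08). Kng1, the kininogen from which bradykinin is cut, reached 12.77, 12.63 and 12.56 in BAT against 6.78, 6.23 and 7.07 in sWAT, a difference of 5.96 (SE 0.30, adjusted p = 1.2e-08). Cpn2, the regulatory subunit of the carboxypeptidase N that trims kinins, showed 10.86, 10.48 and 10.86 against 4.8, 4.9 and 4.55. The groups did not overlap for any of these genes, which was a condition of naming them. It held for 10290 of the 10301 called probe sets. Olig1, a helix-loop-helix factor best known from oligodendrocytes, differed by 5.63 (SE 0.24), and Cideb, a lipid droplet protein related to CIDEA, by 5.01 (SE 0.37). Such sWAT levels lie below the median of their arrays, and with no detection values the exact size of these folds was not measured.

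**Figure D1:**
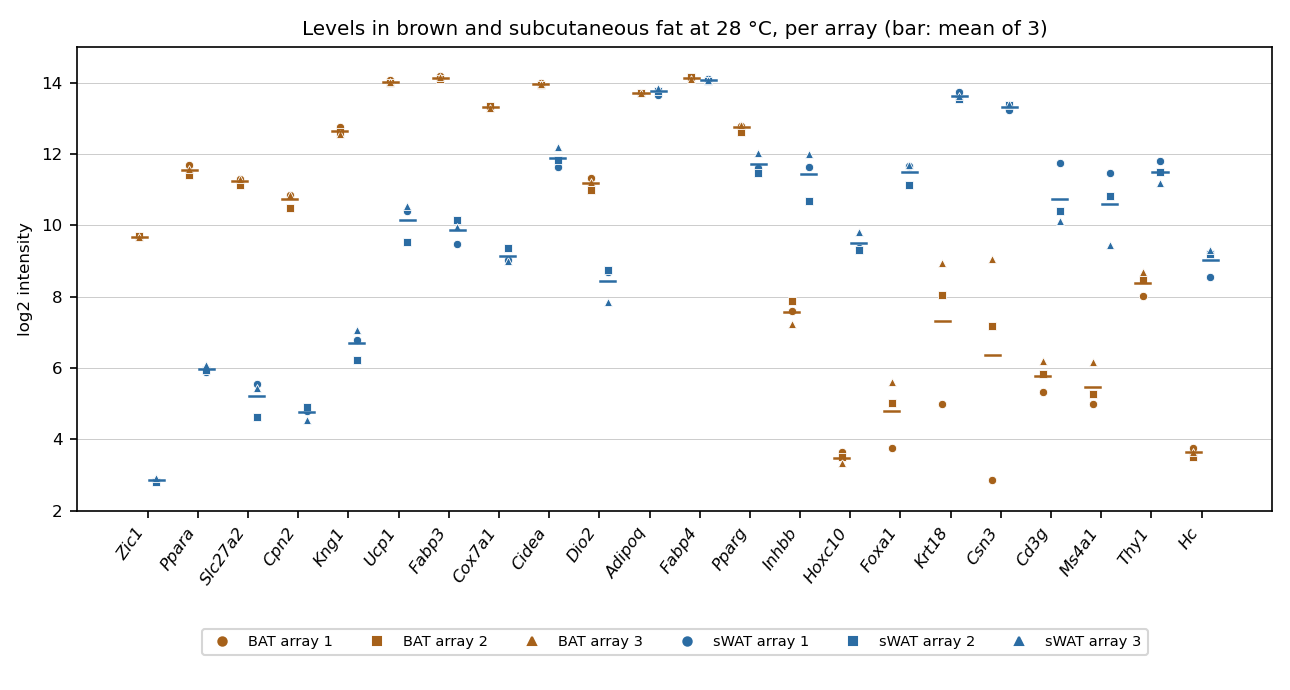
Level (log2 intensity, y axis) of 22 genes (x axis) on each BAT array (brown) and sWAT array (blue) at 28°C, with a bar at the mean of 3 arrays and symbol shapes for arrays 1 to 3. Adipoq and Fabp4 lie at the same height in both depots, the genes to their left are higher in BAT, those to the right of Pparg are higher in sWAT, and the BAT arrays spread most for Csn3, from 2.86 to 9.06.

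Of the 32 measured genes of brown fat thermogenesis, 28 were higher in BAT and 1 was lower, with a median log2 difference of 2.28. Many of them also stand in the study's list of browning genes. That list was drawn from these same arrays, for genes higher in BAT than in both white depots at 28°C and raised by cold in sWAT. The count and median are therefore not independent of these values. Ucp1 lay at 14.07, 14 and 14.02 on the BAT arrays and at 10.39, 9.52 and 10.55 on the sWAT arrays, a 14.7-fold difference (log2 difference 3.87, SE 0.29, adjusted p = 3.6e-07). In mWAT at 28°C its mean was 6.48, so that Ucp1 in sWAT stood 3.68 above the visceral depot (adjusted p = 1.2e-06). Fabp3, a cytosolic fatty acid carrier of heart and muscle, was at 14.18, 14.09 and 14.16 in BAT and at 9.48, 10.15 and 9.96 in sWAT. The difference of 4.28 (SE 0.30, adjusted p = 2.1e-07) exceeded that of Ucp1. S100b, a calcium-binding protein, was higher by 4.01 (SE 0.33) and Otop1, a proton channel, by 3.43 (SE 0.27). Acot11, a thioesterase that splits acyl-CoA, was higher by 3.23 (SE 0.20), and Plin5, which ties lipid droplets to mitochondria, by 2.92 (SE 0.20). Cidea, a droplet protein of brown adipocytes, ranged from 13.93 to 13.99 in BAT and from 11.63 to 12.20 in sWAT, a difference of 2.08 (SE 0.24, adjusted p = 1.4e-05). Dio2, the deiodinase that makes active thyroid hormone within the tissue, was at 11.34, 11 and 11.21 against 8.69, 8.75 and 7.86, a difference of 2.75 (SE 0.45, adjusted p = 0.00029).

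Several regulators of this programme were higher in BAT, of which Esrra, Ebf2 and Prdm16 were picked after their values had been seen. Ppara, the nuclear receptor that drives fatty acid oxidation genes, lay at 11.70, 11.41 and 11.57 in BAT and at 5.89, 5.93 and 6.09 in sWAT, a 48.2-fold difference (log2 difference 5.59, SE 0.27, adjusted p = 1.2e-08). Esrrg, an estrogen-related receptor of oxidative tissues, differed by 3.61 (SE 0.20) and its relative Esrra by 1.97 (SE 0.19). The coactivators of mitochondrial biogenesis Ppargc1b and Ppargc1a differed by 2.93 (SE 0.23) and 2.70 (SE 0.40). Ebf2 and Prdm16, which specify brown adipocytes, differed by 2.30 (SE 0.25) and 2.27 (SE 0.23). In all of these the lowest BAT array was above the highest sWAT array. Such a lack of overlap was found for 10290 of the 10301 called probe sets. The single thermogenesis gene lower in BAT was Elovl6, an elongase of saturated fatty acids, at -0.44 (SE 0.11, adjusted p = 0.0061). Its call was lost without BAT array 1 or 3 or sWAT array 2 or 3, with adjusted p from 0.017 to 0.030. The same was seen with the 6 arrays alone (adjusted p = 0.042) and after median centring (adjusted p = 0.045). The mean of its probe sets had no call either (-0.31, adjusted p = 0.41). No call was reached by Elovl3 (0.71, adjusted p = 0.39), which lengthens saturated acyl chains in brown fat and whose sWAT arrays ran from 4.64 to 7.65, by the muscle chaperone Hspb7 (1.56, adjusted p = 0.12) or by the secreted factor Bmp8b (0.99, adjusted p = 0.014). Bmp8b was called with quantile normalization (adjusted p = 0.0081), after median centring (adjusted p = 0.0061) and without BAT array 3 (adjusted p = 0.0075).

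Of 20 measured genes that brown and white adipocytes share, 5 were higher in BAT and none was lower, with a median difference of 0.20, and 2 were called when only the 6 arrays were fitted. Fabp4, the adipocyte fatty acid binding protein, lay between 14.04 and 14.17 on all arrays (difference 0.07, adjusted p = 0.61), and Adipoq differed by -0.04 (adjusted p = 0.74). These are among the brightest probe sets of the arrays, whose highest intensity was 31897, and whether differences are compressed there was not tested. The mean over the probe sets of Fabp4 was called higher in BAT (0.63, adjusted p = 0.0053). Pparg, the master regulator of adipocytes, was higher in BAT at 12.79, 12.63 and 12.81 against 11.62, 11.47 and 12.03, a difference of 1.03 (SE 0.14, adjusted p = 5.2e-05). Aqp7, the glycerol channel, was higher by 1.96 (SE 0.26, adjusted p = 4.2e-05).

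Transcripts of the respiratory chain were mostly higher in BAT, with list medians well below that of the thermogenic genes. For complex I, which passes electrons from NADH to ubiquinone, 33 of 34 measured subunits and assembly genes were called higher, with a median difference of 0.75, and Ndufv3 was not (0.28, adjusted p = 0.021, and 0.0021 after median centring). All 4 genes of complex II (median 1.09) and 8 of 9 of complex III (median 0.80) were higher, with Uqcrb the exception at 0.42 (adjusted p = 0.014, and 0.0031 after median centring). For complex IV, which reduces oxygen, 12 of 15 were higher (median 0.71), a count that was 9 to 11 with 1 array left out and 6 with the 6 arrays fitted alone. ATP synthase had 8 of 16 genes higher and 2 lower (median 0.44). Among subunits, Ndufs1 of complex I differed by 1.38 (SE 0.14), Sdhb of complex II by 1.17 (SE 0.12) and Uqcrc1 of complex III by 1.52 (SE 0.13). The 2 lower genes of complex V were Atp5g1, which encodes the c-ring subunit (-1.14, SE 0.25, adjusted p = 0.0023), and Atpif1, the inhibitor of the enzyme (-0.76, SE 0.12, adjusted p = 0.00024). Atp5g1 had 10.56, 11.64 and 11.39 in BAT against 12.19, 12.70 and 12.13 in sWAT, and its adjusted p was 0.010 without BAT array 1, 0.015 without sWAT array 2 and 0.030 in a fit of the 6 arrays alone. Atpif1 had 11.29 to 11.37 in BAT and 11.94 to 12.33 in sWAT, and kept its call in each of these settings.

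The pathways that feed electrons to the chain showed the same direction. Mitochondrial fatty acid oxidation had 17 of 19 genes higher in BAT and 1 lower (median 1.07). Acaa2, the thiolase of the last step, lay at 14.22, 14.17 and 14.19 against 12.14, 12.19 and 12.25, a 4-fold difference (log2 difference 2.0, SE 0.13, adjusted p = 1.3e-07). Hadha, of the trifunctional protein, differed by 1.88 (SE 0.17), Eci1, which moves double bonds, by 1.81 (SE 0.17), and Etfdh, which hands electrons to ubiquinone, by 1.73 (SE 0.13). Hadh, a dehydrogenase of short acyl chains, did not pass (0.31, adjusted p = 0.020, and 0.0026 after median centring), and the lower gene was Cpt1a, the liver-type entry enzyme, at -0.86 (SE 0.22, adjusted p = 0.0080). This call was lost without any 1 of BAT arrays 1 and 3 and sWAT arrays 1 to 3, with adjusted p from 0.019 to 0.045. It was also lost in fits of the 6 arrays or the 12 BAT and sWAT arrays. Quantile normalization, median centring and array weights removed it too, with adjusted p from 0.011 to 0.024 over these settings. The citrate cycle and pyruvate list had 20 of 27 genes higher and 1 lower (median 1.19). Its largest difference was in Me3, the mitochondrial malic enzyme that yields NADPH, at 10.33, 10.18 and 10.24 against 5.14, 5.56 and 5.62, a 28.1-fold difference (log2 difference 4.81, SE 0.29, adjusted p = 5.1e-08). Ogdh, a subunit of the oxoglutarate dehydrogenase complex, differed by 1.84 (SE 0.13) and Idh2, the mitochondrial isocitrate dehydrogenase, by 1.77 (SE 0.16). Of the kinases that switch off pyruvate dehydrogenase, Pdk2 was higher by 2.09 (SE 0.22) and Pdk3 was lower, at -1.74 (SE 0.25).

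Breakdown of branched-chain amino acids and propionate had 16 of 21 genes higher in BAT and 1 lower (median 0.99), peroxisomal oxidation and biogenesis 17 of 27 higher and 1 lower (median 0.75), and ubiquinone synthesis 10 of 12 higher and none lower (median 1.13). The lower call was lost for peroxisomes without any 1 of the 6 arrays, and for branched-chain amino acids without BAT array 1 or 2 or sWAT array 1 or 2. Coq6, a hydroxylase of the ubiquinone ring, differed by 2.36 (SE 0.18), and Amacr, a racemase of branched fatty acids in peroxisomes, by 1.98 (SE 0.16). Proteins of the mitochondrial ribosome, which makes the subunits encoded in mitochondrial DNA, were higher for 68 of 74 genes and lower for none (median 0.86, 62 to 66 called with 1 array left out). Cytosolic ribosomal proteins went the other way, with 0 of 43 measured higher and 13 lower (median -0.29). That count was 3 to 10 with 1 array left out, 3 after median centring and 2 with the 6 arrays fitted alone. Of the mitochondrial carriers, 18 of 39 were higher and 5 lower (3 lower without BAT array 1 or 2 or sWAT array 2). Slc25a42, the carrier of coenzyme A, had 12.80, 12.62 and 12.75 in BAT and 9.67, 9.83 and 10.15 in sWAT, a difference of 2.84 (SE 0.14, adjusted p = 1.4e-08). Slc25a10, the dicarboxylate carrier, was lower at -1.65 (SE 0.28, adjusted p = 0.00036).

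**Figure D2:**
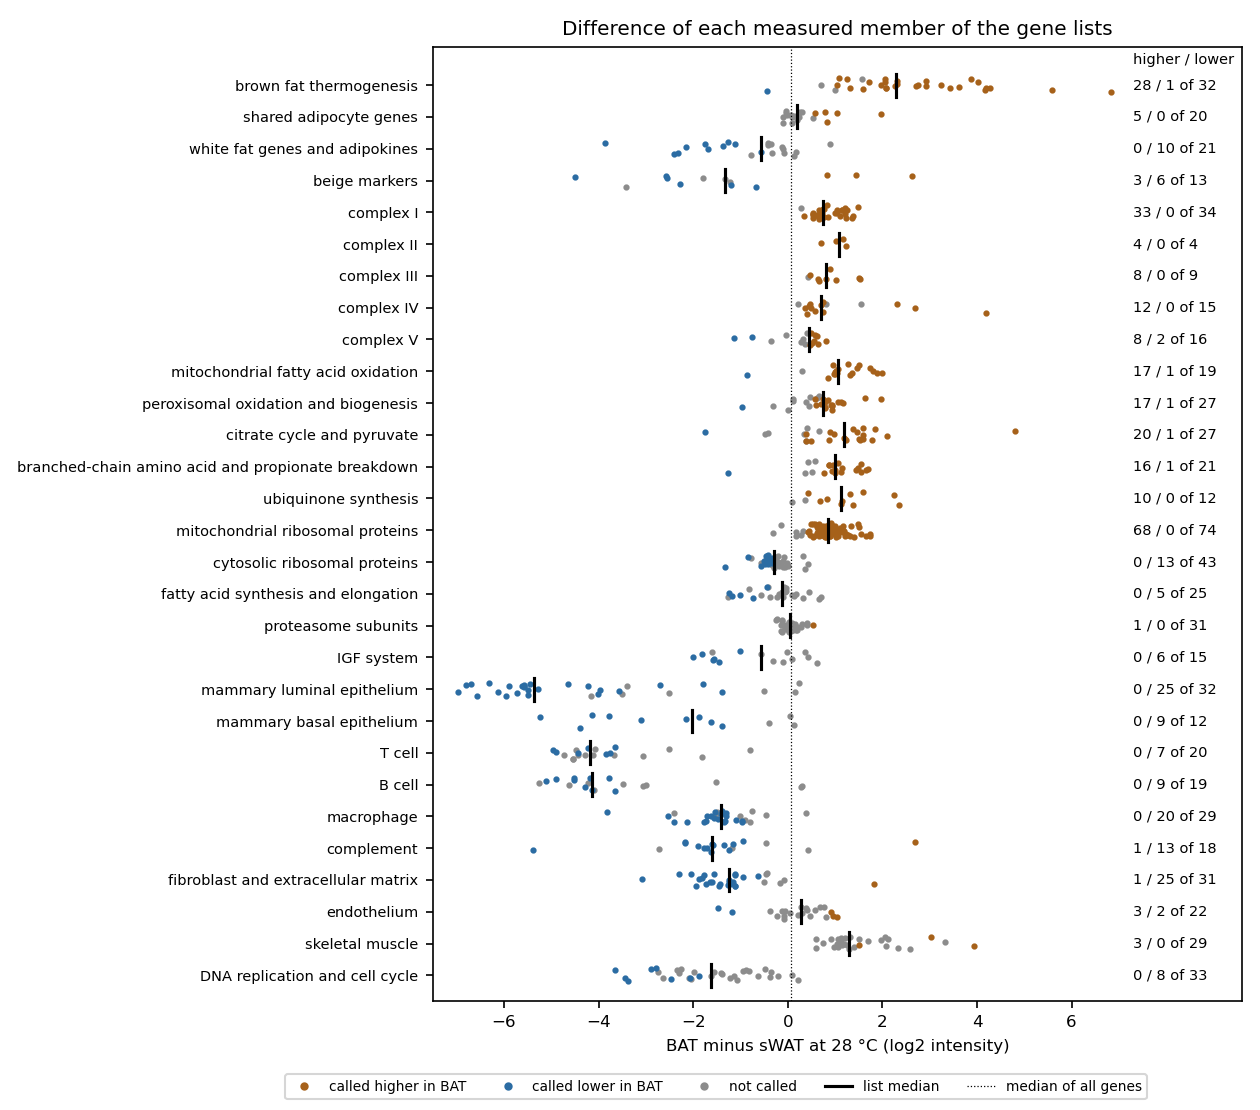
Log2 difference, BAT minus sWAT at 28°C (x axis), of each measured member of the gene lists shown (rows), with brown points for genes called higher in BAT, blue for lower and grey for not called, a black bar at the list median and the counts at the right. The mitochondrial lists sit to the right of the dotted line at 0.077, the median of all genes, and the mammary, lymphocyte, macrophage, complement and matrix lists to its left.

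Skeletal muscle transcripts differed between arrays of the same depot and are given here because muscle shares many mitochondrial genes. The mean level of 29 muscle genes was 8.38, 12.18 and 11.62 on BAT arrays 1 to 3 and 9.31, 10.88 and 7.22 on the sWAT arrays, so that the depots overlapped. On BAT array 1 the muscle genes had a median of -1.06 against the mean of the sWAT arrays, while the median was 2.28 for thermogenesis, 0.77 for complex I, 1.11 for mitochondrial fatty acid oxidation, 1.18 for the citrate cycle and 0.92 for mitochondrial ribosomal proteins. These medians of BAT array 1 alone were close to those over the 3 BAT arrays. Not all lists stayed so close. Creatine and calcium cycling had a median of -0.09 on BAT array 1 against 0.59 over the 3, and heart-type and general isoforms 0.21 against 0.37. The part of muscle in the differences was not tested. The muscle list itself had 3 of 29 genes higher in BAT and none lower (median 1.30), with 6 called without BAT array 1, 1 with the 6 arrays fitted alone and a median from 0.11 to 2.50 with 1 array left out. The 3 are 10.3% of the list, against 14.5% of all genes higher in BAT. Of these 3, Actn2, an actinin of the sarcomere, lay at 10.29, 10.55 and 10.61 in BAT and at 7.57, 6.14 and 5.93 in sWAT (difference 3.94, SE 0.38, adjusted p = 2.7e-06). Mb, which encodes myoglobin, was at 8.94, 11.95 and 11.38 against 8.23, 7.71 and 7.25 (difference 3.03, SE 0.61, adjusted p = 0.0013, and 0.022 with the 6 arrays alone).

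Some mitochondrial and fuel proteins have a heart or muscle form and a general form. Of 19 such isoforms 8 were higher in BAT, 2 were lower and 9 had no call, with none lower without any 1 of BAT arrays 1 and 3 and sWAT array 1. Cox7a1, the heart form of a complex IV subunit, was at 13.34, 13.34 and 13.30 in BAT and at 9.03, 9.36 and 9.01 in sWAT, an 18.3-fold difference (log2 difference 4.19, SE 0.25, adjusted p = 4.5e-08). Its general counterpart Cox7a2 lay between 13.87 and 14.30 on all 6 arrays, with a difference of 0.37 (adjusted p = 0.0092) whose call was lost with any 1 of the 6 arrays left out, at adjusted p up to 0.033. Cox7a2 too is among the brightest probe sets. Cox8b had 14.04, 13.96 and 14 against 11.55, 11.53 and 12.02, a difference of 2.30 (SE 0.18, adjusted p = 5.5e-07), and Cox8a one of 0.58 (SE 0.11). Ldhb, the heart subunit of lactate dehydrogenase, was higher in BAT by 1.73 (SE 0.18, adjusted p = 5.2e-06) and Ldha did not pass, at 0.04 (adjusted p = 0.78). Cox6a2 moved with the muscle genes, at 7.70, 11.76 and 11.06 in BAT and 8.54, 10.05 and 7.28 in sWAT, and was not called (adjusted p = 0.19). Acaca and Acacb, the cytosolic and mitochondrial acetyl-CoA carboxylases, showed -0.11 (adjusted p = 0.40) and 0.66 (adjusted p = 0.032), the latter called with the mean of its probe sets (0.86, adjusted p = 0.0010).

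Promoters are shown for the 4 genes with the largest difference among those called in the thermogenesis and mitochondrial lists whose window held 1 of the motifs searched. Windows on 1 chromosome were left out of this choice. The windows, from RefSeq on GRCm38.p6, run from 250 bases before to 50 bases after a transcript start. The motifs were TCAAGGTCA, bound by estrogen-related receptors, AGGTCANAGGTCA, the direct repeat bound by PPAR and RXR, TGACGTCA, the cAMP response element, and CGCATGCG, the core of the site of nuclear respiratory factor 1 (NRF1). Both strands were searched, the last 2 motifs read the same on either, and capitals mark the match. The Ppara window lies at chr15:85735526-85735825 on the plus strand with its match 30 bases before the start, and that of Dio2 at chr12:90738989-90739288 on the minus strand with its match 95 bases before. The Ogdh window lies at chr11:6291347-6291646 on the plus strand with its match 51 bases before the start, and that of Etfdh at chr3:79628718-79629017 on the minus strand with its match 127 bases before.
Ppara: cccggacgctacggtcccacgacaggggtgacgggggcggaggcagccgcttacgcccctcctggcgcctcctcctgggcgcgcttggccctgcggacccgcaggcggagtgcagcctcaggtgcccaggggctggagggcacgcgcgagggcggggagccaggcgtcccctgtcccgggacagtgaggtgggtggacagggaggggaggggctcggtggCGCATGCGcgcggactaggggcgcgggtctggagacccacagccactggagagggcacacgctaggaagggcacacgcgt
Dio2: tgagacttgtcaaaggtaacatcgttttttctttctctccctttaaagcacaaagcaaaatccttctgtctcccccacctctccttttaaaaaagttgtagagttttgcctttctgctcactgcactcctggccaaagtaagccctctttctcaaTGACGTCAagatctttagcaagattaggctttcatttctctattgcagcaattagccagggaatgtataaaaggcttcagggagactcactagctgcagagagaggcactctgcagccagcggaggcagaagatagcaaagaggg
Ogdh: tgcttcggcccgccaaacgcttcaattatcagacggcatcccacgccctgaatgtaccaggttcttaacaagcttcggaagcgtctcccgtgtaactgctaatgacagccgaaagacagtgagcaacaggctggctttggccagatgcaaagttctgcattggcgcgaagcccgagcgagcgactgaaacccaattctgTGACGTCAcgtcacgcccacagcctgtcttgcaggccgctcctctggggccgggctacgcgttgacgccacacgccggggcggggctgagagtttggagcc
Etfdh: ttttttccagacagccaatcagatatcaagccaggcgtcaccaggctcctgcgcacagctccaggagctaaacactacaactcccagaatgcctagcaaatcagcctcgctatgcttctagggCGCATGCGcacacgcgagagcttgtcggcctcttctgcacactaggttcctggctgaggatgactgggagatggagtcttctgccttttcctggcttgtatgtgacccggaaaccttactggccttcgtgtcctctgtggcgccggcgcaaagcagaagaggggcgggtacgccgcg
Of 14368 genes with a probe set and a window, 3.28% held the NRF1 core, against 4.91% of the genes higher in BAT and 2.28% of those lower. Among 209 called members of the thermogenesis and mitochondrial lists the share was 8.13%, which is 17 genes. The cAMP response element was held by 2.94% of all genes, 3.69% of those higher, 2.23% of those lower and 3.83% of the 209. The estrogen-related receptor motif was rare, at 0.404% of all genes and 0.514% of those higher, and the direct repeat was found in 7 of the 14368. These shares describe the windows and were not tested, and a match is not a measured binding site.

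Uptake, storage and synthesis of fat had smaller medians than its oxidation. Fatty acid uptake, binding and activation had 11 of 34 genes higher in BAT and 2 lower (median 0.59), with 0 lower without BAT array 1 and 1 without BAT array 2 or 3 or sWAT array 2 or 3. Triglyceride synthesis, storage and lipolysis had 14 of 31 genes higher in BAT and 3 lower (median 0.26), with 1 lower without sWAT array 2 and 9 higher and 2 lower with the 6 arrays fitted alone. Gpat3, an acyltransferase of the first step of triglyceride synthesis, was lower, at -1.04 (SE 0.17, adjusted p = 0.00021). Fatty acid synthesis and elongation had 0 of 25 genes higher and 5 lower (median -0.12). The 5 became 2 without BAT array 1 or sWAT array 2 and 1 with the 6 arrays alone, and the median turned to 0.02 after median centring. Elovl1, which builds very long acyl chains, was among them at -1.18 (SE 0.11, adjusted p = 1.8e-06). Acss1, which activates acetate in mitochondria, was higher in BAT by 1.58 (SE 0.17, adjusted p = 7.3e-06).

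In glucose metabolism 9 of 26 genes were higher in BAT and 4 were lower (median 0.45). The largest difference was in Fbp2, the muscle fructose bisphosphatase, at 10.82, 10.57 and 10.37 against 6.74, 7.23 and 7.08 (difference 3.57, SE 0.26, adjusted p = 2.8e-07). Fbp1, the liver form, differed by 2.45 (SE 0.28, adjusted p = 1.4e-05). Both lay well apart between the depots. Eno2 and Aldoc, the neuronal enolase and the brain aldolase, were lower in BAT at -1.62 (SE 0.23) and -1.99 (SE 0.23). Of the genes of heme synthesis and breakdown 7 of 13 were higher and none lower, with 4 called without BAT array 1 or sWAT array 1 or 2. Alas1, the rate-limiting enzyme of heme synthesis, differed by 1.52 (SE 0.21) and Blvra, which makes bilirubin, by 1.21 (SE 0.13). Gss, glutathione synthetase, was higher by 1.97 (SE 0.23, adjusted p = 1.3e-05), in a list of oxidative stress defence with 8 of 33 higher and 1 lower. The creatine and calcium cycling genes, which have been linked to heat without UCP1, were 4 higher (22.2%) and 2 lower (11.1%) of 18. Over all genes the shares were 14.5% and 13.0%. With 1 array left out the list median ran from 0.06 to 0.99, and 1 gene was lower without BAT array 1 or 3 or sWAT array 1. On BAT array 1 alone, against the mean of the sWAT arrays, the median was -0.09, and the part of muscle in this list was not tested. Ckb, the cytosolic creatine kinase of brain and brown fat, was higher by 1.4 (SE 0.26, adjusted p = 0.00080) and the mitochondrial Ckmt1 lower at -4.47 (SE 0.46, adjusted p = 4.7e-06), from 3.40 to 5.02 in BAT against 8.16 to 9.44 in sWAT. Ckmt1 is also known from epithelia. Letm1, a cation exchanger of the inner mitochondrial membrane, was higher by 1.54 (SE 0.16, adjusted p = 4.8e-06).

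Signalling genes were divided. Adrenergic and cAMP signalling, through which noradrenaline reaches the thermogenic programme, had 17 of 43 genes higher in BAT and 7 lower (median 0.23). Akap1, which anchors protein kinase A to mitochondria, was at 11.79, 11.49 and 11.60 against 9.02, 9.06 and 9.29 (difference 2.50, SE 0.21, adjusted p = 8.8e-07). Pde4d, which breaks down cAMP, was higher by 2.26 (SE 0.14), Rgs7, a brake on G proteins, by 2.12 (SE 0.30), and the adenylyl cyclase Adcy7 was lower at -2.08 (SE 0.23). Nuclear receptors and coregulators were 12 higher and 5 lower of 37, with 3 lower without any 1 of BAT arrays 1 to 3 or sWAT array 2. The largest difference downward was Pgr, the progesterone receptor, at 4.54, 6.04 and 6.08 against 11.58, 9.99 and 11.60 (difference -5.50, SE 0.48, adjusted p = 1.1e-06). Vdr, the vitamin D receptor, was lower at -2.61 (SE 0.28).

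Among secreted factors, Gdf5 was the bone morphogenetic protein with the largest difference, at 10.25, 10.31 and 10.28 in BAT and 6.5, 6.63 and 7.11 in sWAT (difference 3.53, SE 0.28, adjusted p = 5.7e-07). Bmp5 and Bmp6 were higher by 2.79 (SE 0.35) and 1.65 (SE 0.28) and Bmp7, which promotes brown adipogenesis, was lower at -2.17 (SE 0.31, adjusted p = 9.5e-05). The whole list of this signalling had 4 of 38 genes higher and 5 lower, with 3 lower without any 1 of the arrays, and 4 and 5 are near the share of all genes. Nrg4, a neuregulin released by brown fat, was at 13.19, 13.16 and 13.14 against 11.63, 11.36 and 12.25, a 2.67-fold difference (log2 difference 1.42, SE 0.17, adjusted p = 2.4e-05). The receptors Erbb3, Egfr and Erbb2 were lower, at -1.93 (SE 0.18), -1.61 (SE 0.24) and -1.35 (SE 0.21). Of the VEGF, angiopoietin and receptor genes 10 of 18 were higher and 3 lower (median 0.70), with 7 to 9 higher and 1 or 2 lower with 1 array left out, 7 and 1 of them without BAT array 1, and 6 and 4 with the 6 arrays alone. Vegfb and Vegfa were higher by 1.71 (SE 0.23) and 1.22 (SE 0.20) and Vegfc had no call (-0.11, adjusted p = 0.69). Angpt1, which stabilises vessels, was higher by 1.96 (SE 0.27) and its antagonist Angpt2 lower at -1.11 (SE 0.18). The insulin-like growth factor system had 0 of 15 higher and 6 lower (median -0.57), among them the binding proteins Igfbp4, Igfbp5 and Igfbp6 at -1.58 (SE 0.15), -1.55 (SE 0.16) and -2.0 (SE 0.35).

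White fat genes and adipokines had 0 of 21 members higher in BAT and 10 lower, with a median of -0.57. Inhbb, an activin subunit, was at 7.59, 7.89 and 7.23 in BAT and at 11.64, 10.69 and 12 in sWAT, a 14.7-fold difference (log2 difference -3.87, SE 0.40, adjusted p = 4.6e-06). Sncg, a synuclein of white adipocytes, was lower at -2.33 (SE 0.32) and Psat1, of serine synthesis, at -2.16 (SE 0.23). Leptin did not follow them. Lep was at 12.25, 12.72 and 12.36 in BAT and at 12.86, 11.74 and 12.98 in sWAT, with overlapping arrays and a difference of -0.08 (SE 0.58, adjusted p = 0.93). Nnat, neuronatin, likewise overlapped (-0.77, SE 0.59, adjusted p = 0.33). Of 13 genes proposed as markers of beige adipocytes, 6 were lower in BAT and 3 higher. Lower were Cited1 (-4.49, SE 0.44), Shox2 (-2.58, SE 0.19), Tmem26 (-2.56, SE 0.33) and Tbx1 (-2.27, SE 0.37) among them, and the higher ones were P2rx5 (2.63, SE 0.25), Car4 (1.45, SE 0.29) and Slc36a2 (0.83, SE 0.15). Against mWAT at 28°C, Cited1 in sWAT stood 5.28 above and Shox2 5.94 above, while Tmem26 and Tbx1 were at -0.89 (adjusted p = 0.12) and -0.20 (adjusted p = 0.85).

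Hox genes, which record the position of a tissue along the body axis, differed by their place in the clusters. Of 33 measured, 7 were higher in BAT and 7 lower. In paralogue groups 1 to 5, which are expressed anteriorly, 6 of 13 genes were higher and none lower, in groups 6 to 8 none of 6 was higher and 1 lower, and in groups 9 to 13 1 of 14 was higher and 6 were lower. This division was made after the values had been seen and carries no test. Hoxa4 was at 9.88, 9.16 and 9.39 against 6.21, 6.26 and 7.03 (difference 2.98, SE 0.34, adjusted p = 1.1e-05), and Hoxa5 and Hoxa3 were higher by 2.50 (SE 0.29) and 1.88 (SE 0.30). None of the 3 other probe sets of Hoxa3 was called. Hoxc10 was at 3.64, 3.49 and 3.33 in BAT and at 9.37, 9.31 and 9.80 in sWAT (difference -6.0, SE 0.53, adjusted p = 1.3e-06). The BAT values of Hoxc10 are close to the floor of the table, whose lowest intensity was 4.44, and those of sWAT are not. Hoxd10 and Hoxa9 were lower at -4.10 (SE 0.53) and -3.39 (SE 0.51), Hoxc9 at -2.40 (SE 0.28), and Hoxa10 at -6.45 (SE 0.98) by 1 of its 2 probe sets, with no call by the other. None of the 9 measured genes of the Hoxb cluster was called. Without sWAT array 1 or 2 the counts became 4 higher and 6 lower. Hoxa2 lost its call without BAT array 1 or 3 or sWAT array 1 or 2 (adjusted p up to 0.019), and Hoxc4 without sWAT array 1 or 2 (adjusted p 0.011). Hoxc8 lost it without BAT array 1 or 3 or sWAT array 1 or 3 (adjusted p up to 0.019). Hoxd9 kept it only without sWAT array 1 (adjusted p up to 0.043 otherwise) and Hoxd12, the posterior gene higher in BAT, only without sWAT array 3 (adjusted p up to 0.034 otherwise).

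**Figure D3:**
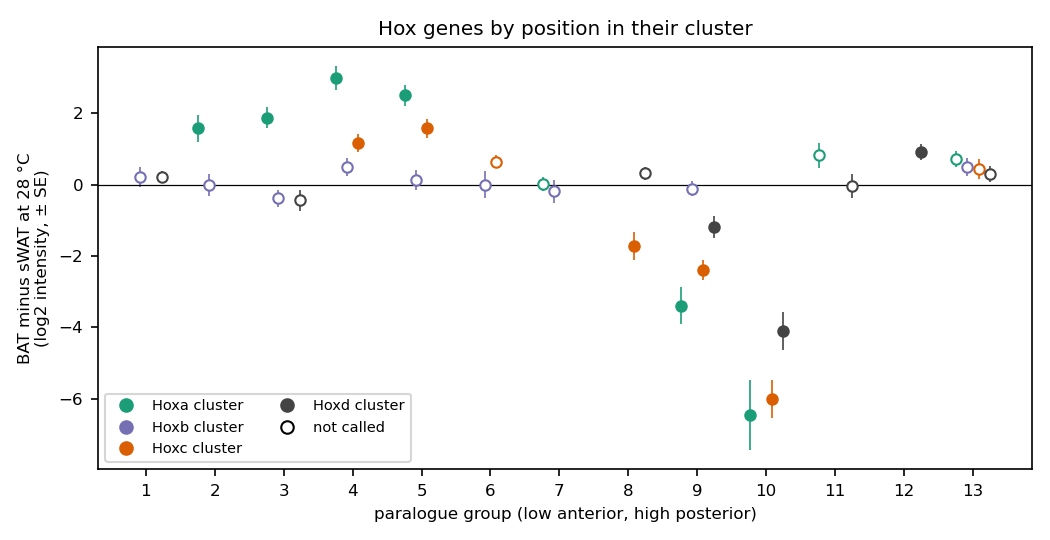
Log2 difference, BAT minus sWAT at 28°C (y axis, with SE), of each measured Hox gene by its paralogue group (x axis, 1 anterior to 13 posterior), coloured by cluster, with open points for genes not called. Filled points lie above 0 in groups 2 to 5 and below 0 in groups 8 to 10, with Hoxd12 the filled point above 0 in group 12, and Hoxa10 and Hoxc10 reach -6.45 and -6.0.

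Other factors of positional identity were 7 higher (17.9%) and 11 lower (28.2%) of 39, the latter 7 without BAT array 1. Over all genes the shares were 14.5% and 13.0%, so that the share higher was near that of all genes. The list median was 0.34, and -0.16 without dim probe sets. Besides Zic1 and Olig1, Foxp2, a forkhead factor, was higher, at 9.30, 9.44 and 9.36 against 6.02, 5.54 and 5.32 (difference 3.74, SE 0.33, adjusted p = 1.3e-06). In mWAT Foxp2 had a mean of 10.33, above both. Irx1, of the Iroquois family, was at 4.63, 5.58 and 5.81 in BAT and 9.03, 10.22 and 9.58 in sWAT (difference -4.27, SE 0.36, adjusted p = 7.8e-07), with a mean of 4.78 in mWAT. Emx2, a homeobox factor of the urogenital tract and brain, was lower at -3.33 (SE 0.49) and had a mean of 3.28 in mWAT. Positional genes high in sWAT were thus not all shared with the visceral white depot.

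Genes of mammary epithelium were far below their sWAT level in BAT. Of 32 markers of its luminal cells 25 were lower in BAT and none higher, with a median difference of -5.36, and of 12 basal markers 9 were lower and none higher (median -2.02). Csn3, a milk casein, was at 2.86, 7.18 and 9.06 on the BAT arrays and at 13.22, 13.37 and 13.40 on the sWAT arrays (difference -6.96, SE 1.29, adjusted p = 0.00073), with an adjusted p of 0.011 in a fit of the 6 arrays alone. Foxa1, a pioneer factor of luminal cells, was at 3.75, 5.02 and 5.60 against 11.65, 11.13 and 11.70, a 104-fold difference (log2 difference -6.70, SE 0.54, adjusted p = 5.6e-07). Krt18, a keratin of simple epithelia, was at 4.98, 8.04 and 8.93 against 13.73, 13.55 and 13.63, and Btn1a1, the milk fat protein butyrophilin, differed by -6.57 (SE 0.48). Within BAT the epithelial genes Csn3, Foxa1, Krt18 and Btn1a1 were lowest on array 1 and highest on array 3. Krt14 and Trp63 of basal cells were lower at -5.24 (SE 0.42) and -3.78 (SE 0.33). The mean level of the luminal list ran from 5.39 to 7.46 on the BAT arrays, from 10.32 to 11.27 on the sWAT arrays and from 6.63 to 7.53 on the mWAT arrays. Pgr, Vdr, Erbb3, Cited1 and Irx1 above were likewise high in sWAT, and whether they came from epithelium was not tested.

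Lymphocyte genes were also lower in BAT, with a wide spread within the white depots. The mean level of 20 T cell genes was 5.63, 5.61 and 6.02 on the BAT arrays, 10.50, 9.42 and 8.87 on the sWAT arrays and 10.35, 10.42 and 6.01 on the mWAT arrays. All 20 had a negative difference (median -4.18), 7 were called in the fit of all groups, 0 to 3 with any 1 of the 6 arrays left out and 19 with the 6 arrays fitted alone. B cell genes had 9 of 19 lower and none higher (median -4.14), 3 to 9 with 1 array left out and 15 with the 6 arrays alone. Ms4a1, which encodes CD20, was at 4.98, 5.28 and 6.16 against 11.47, 10.83 and 9.45 (difference -5.11, SE 1.0, adjusted p = 0.0011). Cxcl13, the chemokine of B cell follicles, was at 8.36, 8.05 and 9.12 against 12.61, 11.78 and 11.08 (difference -3.31, SE 0.55, adjusted p = 0.00029), in a list of lymph node stroma and vessels with 6 of 10 lower. On the sWAT arrays T cell and B cell genes were both highest on array 1 and lowest on array 3.

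Macrophage, complement and matrix genes were lower in BAT with less spread. Of 29 macrophage genes 20 were lower and none higher (median -1.42, 15 to 19 lower with 1 array left out). Arg1, an arginase of alternatively activated macrophages, was at 5.62, 6.12 and 5.97 against 8.84, 10.38 and 9.91 (difference -3.81, SE 0.34), and Clec10a, a lectin of macrophages and dendritic cells, was lower at -2.14 (SE 0.24). Complement had 13 of 18 genes lower and 1 higher (median -1.59), led by Hc, complement component 5, at 3.75, 3.49 and 3.65 against 8.56, 9.19 and 9.31 (difference -5.39, SE 0.43, adjusted p = 5.8e-07). The exception was C8g, of the membrane attack complex, higher by 2.69 (SE 0.19, adjusted p = 2.2e-07). The mast cell proteases Mcpt4 and Tpsb2 were lower at -2.26 (SE 0.34) and -2.24 (SE 0.26), whereas Hdc, which makes histamine, was higher by 1.39 (SE 0.20), in a list of neutrophil and mast cell genes with 5 of 14 lower and 1 higher.

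Fibroblast and extracellular matrix genes had 25 of 31 lower in BAT and 1 higher (median -1.24), and 18 to 22 lower with 1 array left out. Thy1, a surface marker of stromal cells, was at 8.03, 8.46 and 8.69 against 11.80, 11.49 and 11.18 (difference -3.09, SE 0.30, adjusted p = 2.9e-06), Dpp4, of interstitial progenitors, was lower at -2.30 (SE 0.27) and Fn1, fibronectin, at -1.93 (SE 0.35). The gene that was higher was Dlk1, an inhibitor of adipocyte differentiation, by 1.82 (SE 0.25, adjusted p = 5.8e-05). Endothelial genes were 3 higher and 2 lower of 22 (median 0.29), close to the shares over all genes. Without sWAT array 3, whose mean of this list was 10.63 against 9.97 and 10.10 on the other sWAT arrays, 8 were higher, and with the 6 arrays alone 0 were. Tie1 and Kdr, receptors of endothelial cells, were higher by 1.05 (SE 0.20) and 0.92 (SE 0.16) and Cdh5, their junctional cadherin, by 0.95 (SE 0.25, adjusted p = 0.0092). Plvap and Vwf, of fenestrated and large vessels, were lower at -1.47 (SE 0.13) and -1.18 (SE 0.19). Replication and cell cycle genes were lower for 8 of 33 (median -1.63), with a mean level of 7.02 to 7.24 on the BAT arrays and of 8.81, 9.78 and 7.69 on the sWAT arrays. This count depended on single arrays, at 18 without sWAT array 3 and 1 without sWAT array 2. Endoplasmic reticulum folding genes were lower for 10 of 26 and higher for 2 (median -0.32, 4 to 9 lower with 1 array left out and 4 after median centring). Xbp1, a factor of the unfolded protein response, was lower at -0.99 (SE 0.15) and Ddit3, induced by the same stress, higher by 1.11 (SE 0.13). Proteasome subunits were 1 higher and none lower of 31.

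**Figure D4:**
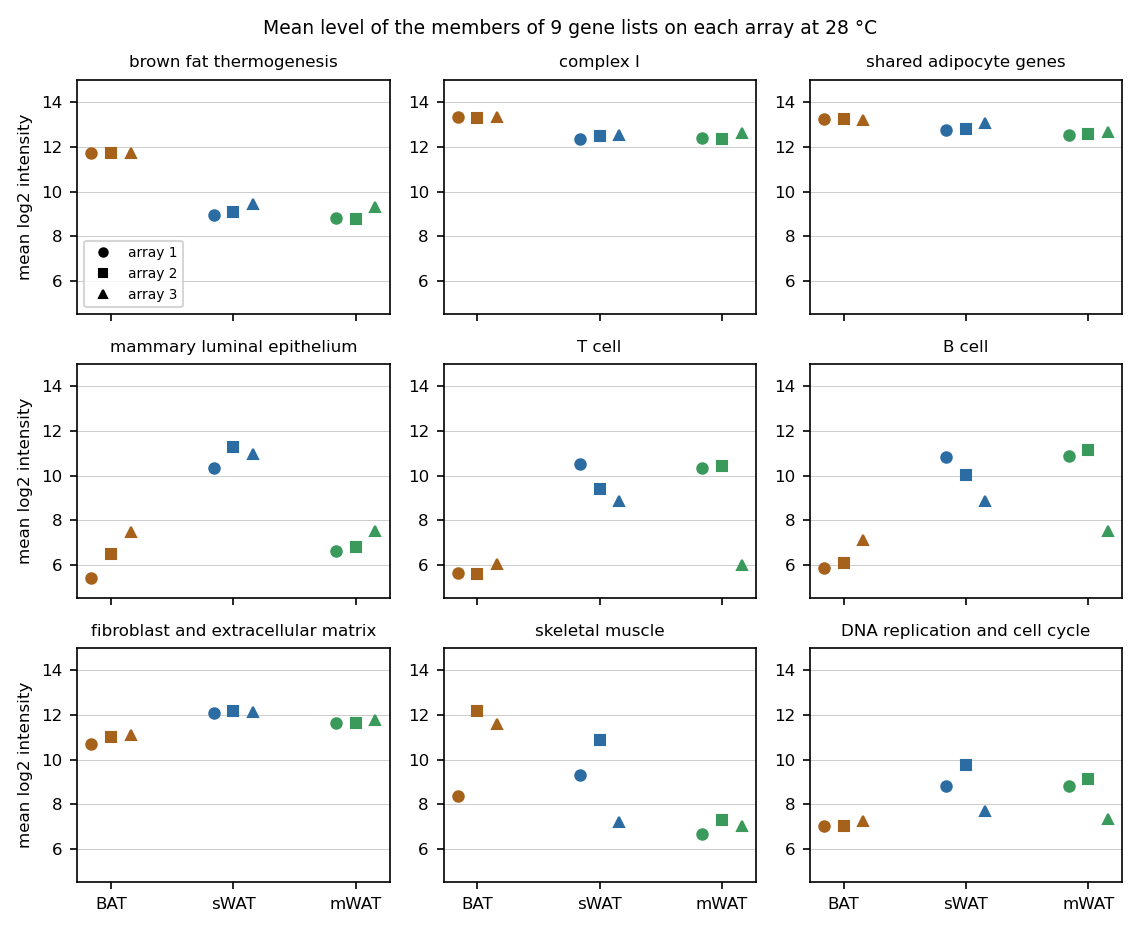
Mean log2 intensity (y axis) of the members of 9 gene lists on each BAT, sWAT and mWAT array at 28°C (x axis, shapes for arrays 1 to 3). Thermogenesis and complex I are tight within each depot, while muscle genes range from 7.22 to 10.88 within sWAT and T cell genes from 6.01 to 10.42 within mWAT.

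The same depots were compared on other arrays from mice kept at 6°C. There 10677 probe sets were called, which is 23.7%. Of the 5949 probe sets higher in BAT at 28°C, 3514 were also higher at 6°C, which is 59.1% of those at 28°C and 58.3% of those at 6°C, and 11 were lower. Of the 4352 lower ones, 3063 were also lower at 6°C, 70.4% of those at 28°C and 65.8% of those at 6°C, and 7 were higher. The difference between the depots itself differed between the temperatures for 163 probe sets, or 0.362%, by limma's contrast of the 2 differences, larger toward BAT at 28°C for 98 and at 6°C for 65. The thermogenesis list held 8 such genes of 32, and its median difference was 2.28 at 28°C and 1.22 at 6°C. Many of its members are among the browning genes that the study drew from these arrays for a rise in cold sWAT. For those genes a narrower gap in the cold was in part a condition of the choice. The medians at both temperatures were 0.75 and 0.44 for complex I, 1.07 and 0.54 for mitochondrial fatty acid oxidation, and -5.36 and -4.99 for luminal mammary genes.

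For Ucp1, Cox7a1, Fabp3 and Ppara the gap was narrower in the cold, with higher levels in sWAT (adjusted p up to 0.00011) and no call between the BAT levels (adjusted p from 0.52 to 0.96). Ucp1, Fabp3 and Cox7a1 are among the brightest probe sets in BAT, and whether a further rise there would be measured was not tested. Ucp1 had a mean of 14.03 in BAT and 10.15 in sWAT at 28°C and of 14.36 and 13.80 at 6°C, so that the difference was 3.87 in the warm and 0.57 (adjusted p = 0.14) in the cold. The change of the difference, 3.31 (SE 0.42), passed the test (adjusted p = 0.0019). Cox7a1 went from 4.19 to 1.06, Fabp3 from 4.28 to 1.02 and Ppara from 5.59 to 2.44, with adjusted p of 0.0011, 0.0025 and 0.0015 for the change. The difference of Zic1 was 6.83 and 6.66, a change of 0.17 (SE 0.24, adjusted p = 0.84), and that of Dio2 2.75 and 2.23, a change of 0.52 (SE 0.64, adjusted p = 0.81). Slc27a2 went from 6.04 to 3.61 and Nrg4 from 1.42 to 0.32, changes that did not reach the threshold (adjusted p = 0.022 and 0.039). Of the thermogenic genes with a called change Bmp8b alone moved toward BAT in the cold, with a difference of 0.99 at 28°C and 4.37 at 6°C (adjusted p = 0.0015 for the change). Its mean in BAT was 6.63 in the warm and 10.83 in the cold, and in sWAT 5.64 and 6.46.

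**Figure D5:**
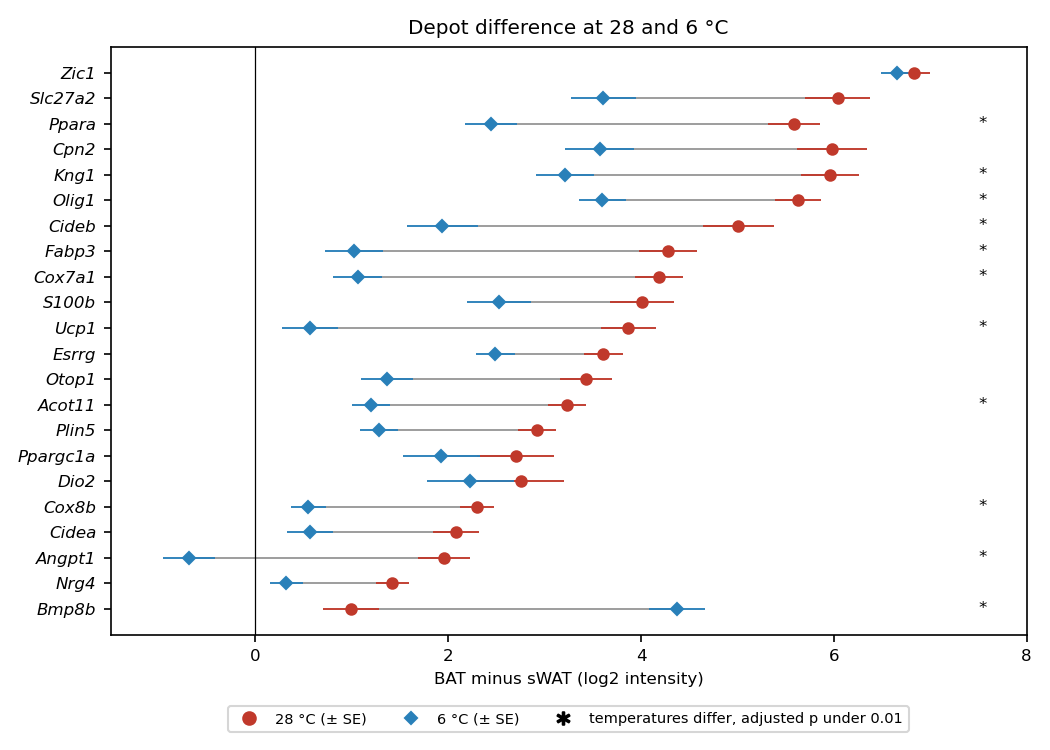
Log2 difference, BAT minus sWAT (x axis, with SE), of 22 genes (rows) at 28°C (red circles) and 6°C (blue diamonds), 3 arrays a group, with an asterisk where the difference between temperatures had an adjusted p below 0.01. Most genes lie further right at 28°C, Zic1 is at 6.83 and 6.66, and Bmp8b alone lies further right at 6°C.

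The depot difference of Angpt1, Mfsd2a, Ntsr2 and Slc16a7 also depended on temperature (adjusted p of 0.0039, 0.00057, 0.0046 and 0.0015 for the change), and each had a call between the temperatures in BAT and none in sWAT. Angpt1 was higher in BAT at 28°C by 1.96 and at 6°C showed -0.69 (adjusted p = 0.057), with BAT means of 10.47 and 8.31. Mfsd2a, a transporter of lysophosphatidylcholine, was lower in BAT at 28°C at -2.19 (adjusted p = 2.6e-05) and higher at 6°C by 1.66 (adjusted p = 0.0003). Ntsr2, a neurotensin receptor, turned in the same way, from -1.51 (adjusted p = 0.0013) to 1.34 (adjusted p = 0.0030). Slc16a7, a monocarboxylate transporter, turned the other way, from 1.28 (adjusted p = 0.0016, and 0.010 without sWAT array 1) to -1.86 (adjusted p = 9.5e-05). Ffar4, a receptor for long chain fatty acids, was higher in BAT at both, by 1.28 (adjusted p = 0.00033, and 0.015 in a fit of the 6 arrays alone) and 2.32, with no call for the change (-1.04, adjusted p = 0.11). Among transcription factors that the study follows up, Bcl6 was higher in BAT at 28°C, at 12.98, 12.83 and 13.03 against 12.26, 12.24 and 11.88 (difference 0.82, SE 0.19, adjusted p = 0.0042). Its call was lost without BAT array 1 or 3 or sWAT array 3 (adjusted p from 0.016 to 0.021). Cebpb had no call (1.27, adjusted p = 0.012) and gained one in 7 other settings, without BAT array 3 (adjusted p = 0.0048), without sWAT array 3 (adjusted p = 0.0061) and after median centring (adjusted p = 0.0061) among them. Pax6 (0.47, adjusted p = 0.098) was called with the mean of its probe sets (0.51, adjusted p = 0.0027). No call was made for Nr5a1 (0.37, adjusted p = 0.31) or Atf5 (0.38, adjusted p = 0.11).

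Mesenteric fat gave a further reference at 28°C, in comparisons that share the BAT or the sWAT arrays with those above. Ucp1 in BAT stood 7.55 above mWAT and 3.87 above sWAT, Cidea 3.54 and 2.08, and Zic1 7.13 and 6.83. For Ppara the corresponding values were 4.81 and 5.59 and for Me3 3.51 and 4.81. Me3 was thus lower in sWAT than in the visceral depot, at -1.30 (adjusted p = 0.0085), while Ppara was at -0.78 without a call (adjusted p = 0.086). Foxa1 was at 1.12 in BAT against mWAT (adjusted p = 0.11) and at 7.82 in sWAT against mWAT. Thy1 in sWAT was not apart from mWAT (0.89, adjusted p = 0.081), and in BAT it stood at -2.20 against it.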

How the data were processed

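RNA of 3 depots at 2 temperatures was measured on 18 Affymetrix arrays. The deposited table holds linear intensities, which the authors background adjusted, summarised and normalized in Bioconductor before deposit, so that differences can be compressed or centred by those steps. The summarisation algorithm is not given in the sources used here, and the methods and legends name different array types. No detection values come with the table, so levels near its floor are of uncertain size, and the 3 arrays a group limit the precision.

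The log2 of the intensities was not normalized or filtered again and was fitted with limma 3.58.1 (R 4.3.3), the tool the methods name, with 1 mean for each of 6 groups (12 residual degrees of freedom). The 64 control probe sets were left out and Benjamini-Hochberg adjustment ran over the other 45037, with a threshold of 0.01. The fit was tested on simulated data. Of the probe sets, 34945 name 1 gene, 932 several and 9160 none, and the brightest stands for a gene. The 58 lists have 1365 measured members of 1526, overlap in part, and were, like the genes and comparisons, chosen with earlier results of these data known. Named genes are the largest differences of all genes, of each list and between temperatures, the heart and general isoforms and the genes the study follows up, though not all of these are described. Esrra, Ebf2, Prdm16, Otop1, Lep, Adipoq, Hoxc4, Hoxc5, Hoxc8, Hoxa9, Hoxd9 and Hoxd12 were added after their values were seen. Alternatives changed the threshold, the arrays in the fit, the normalization, dim probe sets, the variance model, weights, the probe set of a gene, and each array in turn. Array numbers only name arrays.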

Additional observations from a re-analysis of the deposited data

Results flagged for a closer look

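Among the genes named for their values at 28°C, leaving out those named for a change between temperatures, there were 16 for which the BAT minus sWAT difference was not the same at both temperatures, by limma's contrast of the difference at 28°C minus that at 6°C at an adjusted p below 0.01 over all probe sets. Of these 16, all but Bmp8b and Fdps had the larger difference toward BAT at 28°C. These were Ucp1 (3.31), Fabp3 (3.26), Ppara (3.15), Cox7a1 (3.13), Cideb (3.06), Kng1 (2.75), Angpt1 (2.65), Acot11 (2.03), Olig1 (2.02), C8g (1.79), Cox8b (1.75), Acaa2 (1.36), Slc25a42 (1.35) and Blvra (1.30). For Ucp1, Fabp3, Ppara, Cox7a1, Kng1, Cox8b and Acaa2 the BAT mean changed by no more than 0.34 between the temperatures. For Angpt1 it was the BAT mean that fell in the cold, by 2.16, for Blvra by 0.90 and for Olig1 by 1.27, each past the threshold. The reverse sign was found for Bmp8b (-3.38), whose BAT mean was 4.2 higher at 6°C, and for Fdps (-1.12), of cholesterol synthesis, whose BAT mean was 1.53 higher at 6°C.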

How the results depend on the processing

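No paired analysis was possible because no label ties the arrays of a mouse together. At an adjusted p below 0.05 the calls were 16567 between the depots at 28°C (9392 higher and 7175 lower in BAT), 17227 at 6°C and 765 between the temperatures. With at least 2-fold required, 6064 were called at 28°C, 3008 of them higher. Without probe sets that were dim in both groups, 271 differed between temperatures, with 20629 fewer probe sets tested at 28°C. The share of calls higher in BAT ran from 52.5% (the 6 arrays alone) to 59.5% or 60% with 1 array left out, apart from the 71.3% after median centring. Some list medians near 0 changed sign. After centring they were 0.02 for fatty acid synthesis, 0.14 for BMP signalling, 0.11 for translation initiation factors, 0.03 for neutrophil and mast cell genes and 0.04 for pericytes. Without dim probe sets they were -0.16 for other positional factors, -0.14 for neuregulins, -0.80 for keratinocytes and -0.64 for Schwann cells. With quantile normalization they were -0.02 for the proteasome and -0.05 for Schwann cells, with array weights 0.00 for BMP signalling, and with the mean over probe sets 0.08 for BMP signalling and 0.04 for translation initiation. With 1 array left out the medians ran from -0.06 to 0.01 for BMP signalling, from -0.02 to 0.34 for neuregulins, from -0.05 to 0.01 for translation initiation, from -0.20 to 0.01 for pericytes and from -0.15 to 0.17 for Schwann cells. Hadh, Uqcrb and Ndufv3 gained a call after median centring, without dim probe sets, with a variance trend and with the mean of their probe sets, Hadh and Uqcrb also with array weights. The cause of these changes was not tested. Some of the lists with a count of 0 in 1 direction by limma were also counted at an unadjusted p under 0.05. This gave 8 higher and 0 lower shared adipocyte genes, 0 and 11 white fat genes, 2 and 10 of fatty acid synthesis and 2 and 8 of the IGF system. It gave 9 and 1 of heme synthesis, 5 and 1 proteasome subunits, 0 and 31 cytosolic and 70 and 1 mitochondrial ribosomal proteins. For cell types and the cell cycle it gave 0 and 28 luminal, 0 and 18 T cell, 0 and 25 macrophage and 0 and 26 cell cycle genes. The median differences of the thermogenesis, mitochondrial, mammary, lymphocyte, macrophage and matrix lists kept their direction in every setting run.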
